A study of Homo sapiens with 7 samples.

Results

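Genes of cholesterol and fatty acid synthesis were examined in RH30 cells with and without BV6. The 32 genes were taken by name from the 57189 genes of the count table, without use of their values, and comprised 7 enzymes of the mevalonate pathway, 11 enzymes of the sterol branch, 6 regulators and sterol carriers and 8 enzymes of fatty acid synthesis and desaturation. The list does not hold every enzyme of these pathways. RNA-seq counts were used for 7 samples, 4 of untreated wild-type RH30 cells and 3 of wild-type RH30 cells exposed to 5 µM BV6 for 24 h. RH30 is a widely used line of alveolar rhabdomyosarcoma (RMS). The study's methods state that a derivative expressing GFP and luciferase was used. How this goes with the description of the sequenced cells as wild-type is not stated in the sources used here. The compound BV6 acts as a Smac mimetic, antagonizing inhibitor of apoptosis proteins. All samples came from this 1 line, so the values describe RH30 and not RMS in general. Untreated and BV6 samples of the same number (2, 3 and 4) share a label in their titles and are called experiments 2, 3 and 4 here, whereas no BV6 sample shares the label of untreated replicate 1. A figure legend of the study speaks of biological replicates for these data. Neither it nor the labels say whether the samples were separate cultures, so p-values measure the spread between these samples only.

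Cholesterol is built from acetyl-CoA by way of mevalonate, isoprenoid diphosphates and squalene, which is closed to lanosterol and trimmed to cholesterol. Fatty acids are made from citrate-derived acetyl-CoA by a carboxylase and a synthase, and are then elongated and desaturated. When sterols in the membrane of the endoplasmic reticulum fall, the escort protein SCAP carries the SREBP transcription factors to the Golgi, where they are cleaved and released to switch on genes of both routes, while INSIG proteins hold SCAP back when sterols are plentiful.

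Samples held 54070030 to 77220882 counts each, and the 32 genes together took 0.422% to 0.586% of them. Levels are given as CPM, counts scaled to the normalized library size, in which 3 counts make 0.0389 to 0.0557 CPM. These sums exceed the sequencing depth that the study states for its libraries, and the sources used here do not say whether both mates of a read pair were counted, so a count may stand for less than 1 independent fragment. All 32 genes passed the filter on low counts, which left 23124 genes tested. The myogenic markers of RMS were present in every sample, with MYOD1 between 157 and 474 CPM, DES between 451 and 865 CPM and MYOG between 78.8 and 226 CPM. Of 15 leukocyte markers, NCAM1 stood at 267 to 484 CPM and NKG7 at 5.29 to 11.1 CPM, and the other 13 were under 1 CPM in every sample, with a summed level of 1.75 to 3.65 CPM in untreated and 1.94 to 3.28 CPM in BV6 samples. None of these 13 was at 0 in all samples. The libraries differed in how the level of a gene depended on its GC content. The tenth of genes richest in GC had a median deviation from their mean log2 CPM of 0.55 in untreated replicate 1 and of -0.79 in BV6 replicate 3, against -0.07 to 0.19 in the other samples. GC-corrected log2 fold changes are therefore given beside the uncorrected ones for the role groups and for the genes that the correction moved most or whose sign it turned.

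The genes differed widely in level within untreated cells. On a scale of CPM per kilobase of exon, the desaturase SCD was highest at 261 ± 39.3 (SD, n = 4), followed by ACLY, which splits citrate to acetyl-CoA, at 112 ± 7.34 and by FDPS, which makes farnesyl diphosphate, at 48.5 ± 6.97. The untreated ranges of these 3 genes did not overlap. FASN, the fatty acid synthase, stood at 42.0 ± 21.8 CPM per kilobase, SREBF2 at 41.3 ± 6.83, FADS1 at 33.8 ± 1.21, HMGCS1 at 33.3 ± 5.56 and IDI1 at 31.4 ± 3.95, and the ranges of these 5 genes overlapped their neighbours in this order. FDPS overlapped FASN and SREBF2 and lay above FADS1, HMGCS1 and IDI1 in every untreated sample. At the lower end were the sterol reductase TM7SF2 at 1.29 ± 0.28 CPM per kilobase and INSIG1 at 0.179 ± 0.091. The range of INSIG1 lay below that of every other gene of the list, and its lowest count in any sample was 12. With the longest transcript in place of the union of exons, 4 of the 32 genes moved by more than 3 places in this order, and SCD, ACLY and FDPS kept theirs.

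**Figure D1:**
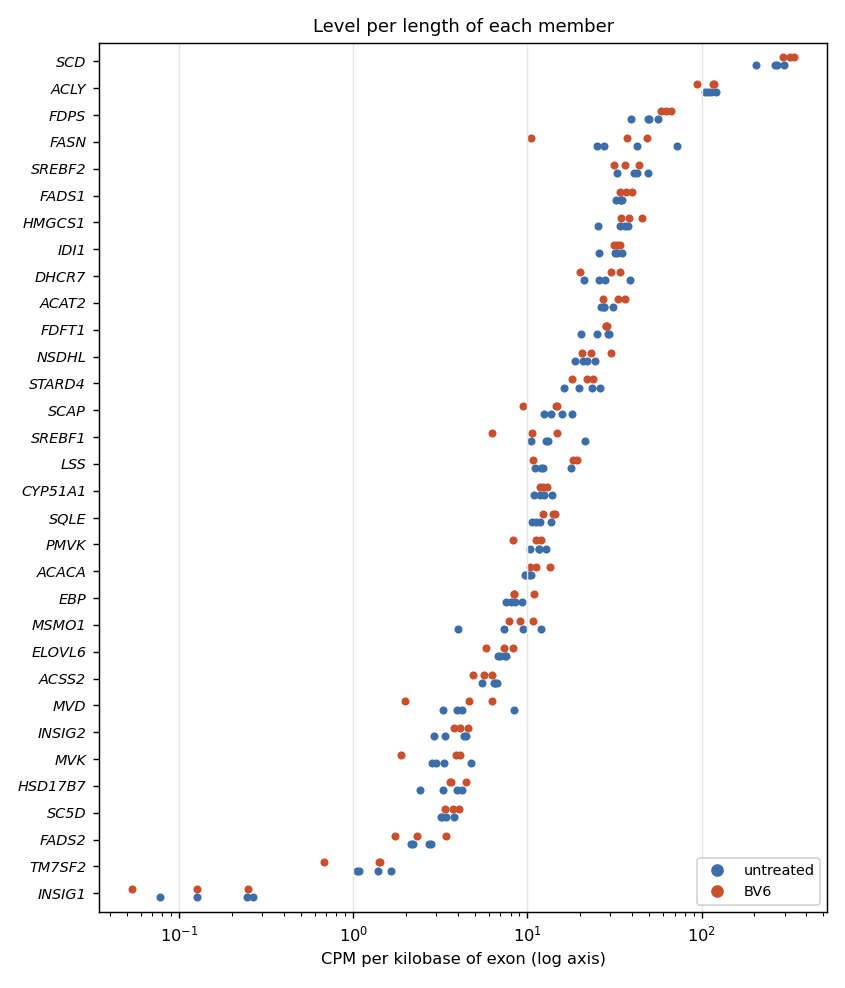
Level of each of the 32 genes in CPM per kilobase of exon on a log axis, 1 point per sample (blue, 4 untreated; red, 3 BV6), with genes ordered by their untreated mean. SCD lies highest and INSIG1 lowest in both groups, and the points of the 2 groups overlap for every gene but FDPS.

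The question was whether BV6 changed the transcripts of these pathways. None of the 32 genes passed an adjusted p of 0.05 in edgeR's quasi-likelihood test, where 104 of the 23124 genes tested did (0.45%). At an unadjusted p below 0.05, edgeR gave 1 gene of the list, FDPS, which is 3.12% of the list against 8.39% of all genes. DESeq2 without the experiment in its model called 0 of the 32 at an adjusted p below 0.05, against 1.67% of its genes, and gave 1 of them (3.12%) an unadjusted p below 0.05, against 5.26% of its genes. Log2 fold changes lay between -0.46 (SREBF1) and 0.37 (FDPS), with 18 above 0 and 14 below, that is 56.2% above 0 against 47.7% of all genes. Their median was 0.04, against -0.01 over all genes tested. The median was -0.01 without untreated replicate 2 and 0.13 without BV6 replicate 3. In bulk RNA, fewer cells of a type and less RNA per cell cannot be told apart.

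The data bounded the changes for most of the genes. The 95% confidence interval of the fold change lay within 2-fold in either direction for 28 of the 32 genes and within 1.5-fold for 20. The exceptions to the wider bound were MVD, INSIG1, SREBF1 and FASN, which with MSMO1 had the largest SD of log2 CPM among the untreated samples. With the experiment number added to the edgeR model as a block, 31 of the 32 intervals lay within 2-fold, all but that of INSIG1, and again none of the 32 genes passed an adjusted p of 0.05 (0.943% of all genes did). Untreated replicate 1 is alone in its block there and adds nothing to the comparison, which rests on the 3 pairs. In that model 4 genes had an unadjusted p below 0.05, FDPS, SCD, SQLE and ACACA, all higher with BV6, which is 12.5% of the list. Of all genes, 4.94% were higher at this p, and 11.4% passed it in either direction.

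**Figure D2:**
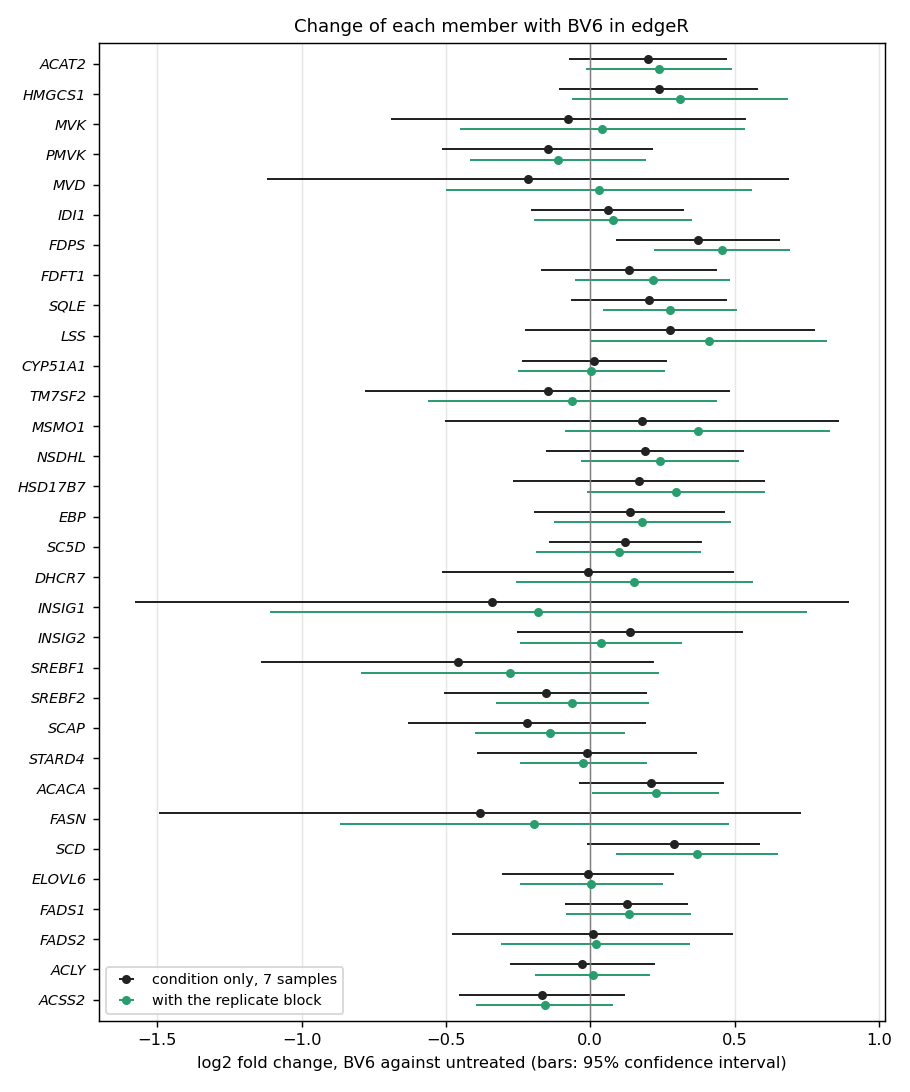
Log2 fold change of each gene with BV6 and its 95% confidence interval in edgeR. Black marks the model with the condition only, fitted to all 7 samples, and green that with the experiment as a block. In the second, untreated replicate 1 is alone in its block, so the comparison rests on the 3 pairs. The interval excludes 0 for FDPS alone in the first model and for FDPS, SCD, SQLE and ACACA in the second, before adjustment for the 23124 genes tested.

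In the mevalonate pathway, 4 of 7 enzymes had a log2 fold change above 0 and 3 below, with a median of 0.06 (0.02 after GC correction). FDPS joins isoprenoid units to farnesyl diphosphate, the last precursor shared by sterols and protein prenylation. Its gene lies on the plus strand at chr1:155308748-155320666 in GRCh38, and its exons share 693 bases with the antisense RNA gene RUSC1-AS1. FDPS stood at 209, 146, 182 and 185 CPM in untreated replicates 1 to 4 and at 232, 250 and 219 CPM in BV6 replicates 2 to 4. All 3 BV6 samples lay above all 4 untreated samples. FDPS was the only gene of the list whose groups did not overlap, 3.12% of the list, where 4.94% of all genes lay higher and 3.89% lower without overlap. Its mean was 180 ± 25.9 CPM (SD, n = 4) in untreated and 234 ± 15.4 CPM (n = 3) in BV6 samples, and its log2 fold change of 0.37 ± 0.13 (SE) did not pass the test (edgeR adjusted p = 0.426). After GC correction it was 0.47. With the block the log2 fold change was 0.46, and the adjusted p was 0.108 in edgeR and 0.0371 in DESeq2, which with the block called FDPS alone of the list (3.12%) and 2.34% of its genes, 1.22% as higher.

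HMGCS1 condenses acetoacetyl-CoA with acetyl-CoA at the entry of the pathway. It stood at 251, 168, 224 and 240 CPM in untreated replicates 1 to 4 and at 300, 254 and 227 CPM in BV6 replicates 2 to 4, so untreated replicate 2 was lowest, BV6 replicate 2 was highest and the groups overlapped. Its log2 fold change was 0.24 ± 0.15 (SE, edgeR adjusted p = 0.735). ACAT2, which makes acetoacetyl-CoA, had a log2 fold change of 0.20. Its exons lie opposite exons of TCP1 over 454 bases, of SOD2 over 133 and of SOD2-OT1 over 98. Exons of HMGCS1 lie opposite those of an unnamed long non-coding RNA gene over 37.7% of its exonic bases. The counts of ACAT2 and HMGCS1 therefore depend on how the counting used strand. MVK, the kinase of mevalonate, and PMVK, the kinase of phosphomevalonate, had log2 fold changes of -0.08 and -0.15, which after GC correction were 0.02 and -0.02. IDI1, the isomerase of isopentenyl diphosphate, had 0.06, and -0.0033 after correction. MVD, which decarboxylates mevalonate diphosphate, ranged from 15.5 to 39.5 CPM in untreated and from 9.36 to 29.4 CPM in BV6 samples, and its log2 fold change of -0.22 had an interval from -1.12 to 0.69. After GC correction it was 0.0063.

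**Figure D3:**
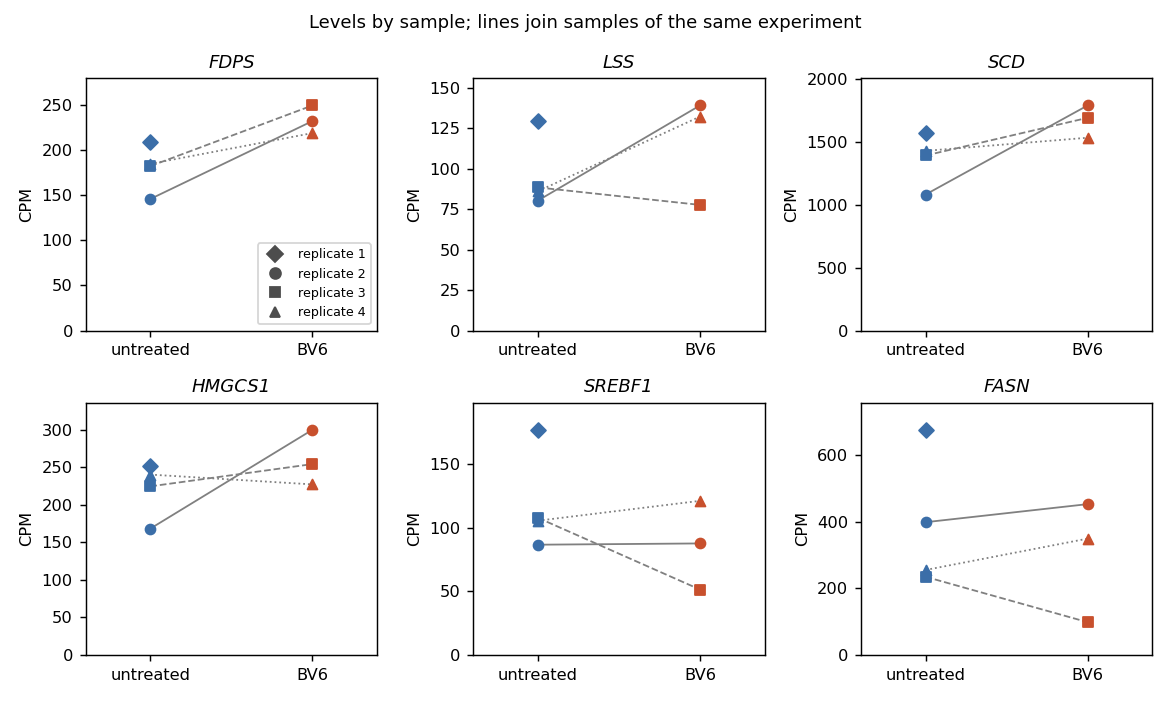
CPM of FDPS, LSS, SCD, HMGCS1, SREBF1 and FASN in the 4 untreated (blue) and 3 BV6 samples (red), with marker shapes for the replicate number and lines joining samples of the same experiment. For FDPS and SCD all 3 lines slope upward, and for the other 4 genes they slope in both directions.

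In the sterol branch, 9 of 11 enzymes had a log2 fold change above 0 and 2 below, with a median of 0.14 (0.10 after GC correction), and none was called. LSS, the cyclase that turns squalene epoxide into lanosterol, stood at 130, 80.4, 88.5 and 86.2 CPM in untreated replicates 1 to 4 and at 139, 77.7 and 132 CPM in BV6 replicates 2 to 4. Untreated replicate 1 was far above the other 3 untreated samples, BV6 replicate 3 was the lowest of all 7, and the groups overlapped. The log2 fold change of LSS was 0.28 ± 0.22 (SE, edgeR adjusted p = 0.776), and 0.38 after GC correction. SQLE, the squalene epoxidase, ranged from 45.5 to 58.6 CPM in untreated and from 52.8 to 62.1 CPM in BV6 samples, with a log2 fold change of 0.20. It was higher with BV6 in all 3 experiments. FDFT1, the squalene synthase, had 0.13, and its untreated range of 103 to 149 CPM enclosed its BV6 range of 144 to 146 CPM.

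The later steps of the branch remove methyl groups and move or reduce double bonds of the sterol. MSMO1, the sterol methyl oxidase, ranged from 11.4 to 34.1 CPM in untreated samples alone, with untreated replicate 2 lowest and untreated replicate 4 highest of all 7, and its log2 fold change was 0.18. NSDHL and HSD17B7, which act with it in demethylation, had log2 fold changes of 0.19 and 0.17, and both were higher with BV6 in all 3 experiments. EBP, the sterol isomerase, had 0.14 and SC5D, the sterol desaturase, had 0.12. CYP51A1, the lanosterol demethylase, had 0.01, and DHCR7, the final reductase, had -0.01 with levels of 145 to 266 CPM in untreated and 138 to 235 CPM in BV6 samples. TM7SF2 had -0.15. After GC correction these 3 had log2 fold changes of -0.05, 0.10 and 0.10, in that order. Exons of CYP51A1 and EBP are shared with unnamed protein-coding genes annotated on the same strand, over up to 68.2% and 36.4% of their exonic bases. The count table holds no row under the identifiers of these unnamed genes.

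Of the 6 regulators and carriers, 5 had a log2 fold change below 0 and 1 above, with a median of -0.19 (-0.08 after GC correction), and none was called. SREBF1 encodes the SREBP that acts mainly on fatty acid genes. It stood at 177, 86.8, 108 and 106 CPM in untreated replicates 1 to 4 and at 87.8, 51.5 and 121 CPM in BV6 replicates 2 to 4. The highest value was in an untreated sample and the lowest in BV6 replicate 3, and the other 5 samples overlapped. Its log2 fold change of -0.46 ± 0.30 (SE) had an interval from -1.14 to 0.22 (edgeR adjusted p = 0.739). After correction for GC content it was -0.24, and -0.12 with the block as well.

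INSIG1 stood at 0.896, 0.285, 0.465 and 0.970 CPM in untreated replicates 1 to 4 and at 0.463, 0.196 and 0.910 CPM in BV6 replicates 2 to 4, levels that rest on 12 to 69 counts. The groups overlapped over almost their whole range, and its log2 fold change of -0.34 ± 0.55 (SE) had an interval from -1.58 to 0.90 (edgeR adjusted p = 0.887). A 2-fold decrease of INSIG1 lay within this interval and was not detectable at this depth and spread. Its paralog INSIG2 ranged from 11.5 to 17.6 CPM in untreated and from 14.9 to 18.1 CPM in BV6 samples, with a log2 fold change of 0.14. SCAP, the escort protein, had -0.22, and -0.02 after GC correction. STARD4, which carries cholesterol between membranes, had -0.01.

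SREBF2 encodes the SREBP that acts mainly on cholesterol genes. It ranged from 263 to 397 CPM in untreated and from 254 to 351 CPM in BV6 samples, with a log2 fold change of -0.15, and -0.06 after GC correction. Among the 28 genes with a promoter in the reference, SREBF2 was the only one with an exact core of the sterol regulatory element, and its sequence is shown for that reason, beside that of FDPS, which was chosen after its values were seen. The SREBF2 sequence is the 250 bases before the RefSeq start on the plus strand, chr22:41832855-41833104 (GRCh38.p14), with the core and an NF-Y box on the reverse strand in capitals. The FDPS sequence, on the plus strand at chr1:155308616-155308747, ends where the annotated gene begins, with an NF-Y box on the reverse strand and a site 1 letter away from the core in capitals.
SREBF2: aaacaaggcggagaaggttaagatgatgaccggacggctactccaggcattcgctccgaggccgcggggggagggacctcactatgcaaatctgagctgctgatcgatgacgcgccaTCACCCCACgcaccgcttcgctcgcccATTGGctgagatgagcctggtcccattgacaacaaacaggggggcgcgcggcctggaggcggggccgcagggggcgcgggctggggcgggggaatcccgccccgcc
FDPS: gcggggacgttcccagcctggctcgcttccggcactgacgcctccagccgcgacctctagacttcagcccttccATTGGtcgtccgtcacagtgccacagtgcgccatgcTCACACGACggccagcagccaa

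The letters searched were TCACNCCAC for the core of the sterol regulatory element, the site at which SREBPs bind, and CCAAT for the box of NF-Y, a factor that binds beside them, on both strands of the 300 bases from 250 before to 50 after the start. RefSeq promoters were matched for 28 of the 32 genes, all but ACAT2, FDFT1, SQLE and FASN. The exact core was in 1 of the 28 (3.57%), at 133 bases before the start of SREBF2, against 1.15% of 27305 promoters. With 1 mismatch allowed it was in 12 of the 28 (42.9%) against 24.2% of promoters. The CCAAT box was in 18 of the 28 (64.3%) against 35.7%, with 5 copies each in MVK and NSDHL. FDPS had 3 CCAAT boxes, starting 51, 122 and 176 bases before its RefSeq start. These are matches of letters, and no binding was measured.

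Of the 8 genes of fatty acid synthesis, 4 had a log2 fold change above 0 and 4 below, with a median of 0.0002 (0.05 after GC correction), and none was called. SCD, which places the double bond in stearate, was the most abundant gene of the list. It stood at 1571, 1081, 1392 and 1428 CPM in untreated replicates 1 to 4 and at 1789, 1691 and 1533 CPM in BV6 replicates 2 to 4. Only untreated replicate 1 lay above a BV6 sample, and SCD was higher with BV6 in all 3 experiments. Its mean was 1368 ± 206 CPM (SD, n = 4) in untreated and 1671 ± 129 CPM (n = 3) in BV6 samples, and its log2 fold change was 0.29 ± 0.13 (SE, edgeR adjusted p = 0.610).

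FASN stood at 676, 399, 235 and 255 CPM in untreated replicates 1 to 4 and at 453, 98.3 and 349 CPM in BV6 replicates 2 to 4. Its highest sample exceeded its lowest 6.88-fold, and the groups overlapped. The SD of its log2 CPM among the untreated samples alone was 0.70. The log2 fold change of FASN was -0.38 ± 0.50 (SE) with an interval from -1.49 to 0.73 (edgeR adjusted p = 0.856), and after GC correction it was -0.14.

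ACACA, the acetyl-CoA carboxylase, ranged from 125 to 137 CPM in untreated and from 134 to 175 CPM in BV6 samples, with a log2 fold change of 0.21, and was higher with BV6 in all 3 experiments. ACLY had -0.03. ACSS2, which makes acetyl-CoA from acetate, had -0.17 and was the only gene of the list that was lower with BV6 in all 3 experiments. The elongase ELOVL6 had -0.01, the desaturase FADS1 had 0.13 and the desaturase FADS2 had 0.01, or 0.12 after GC correction. FADS1 and FADS2 share 490 exonic bases on opposite strands, so their counts depend on how strand was used.

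The experiments differed from one another in how these genes moved. Within experiment 2, BV6 was higher for 29 of the 32 genes (90.6%), with a median log2 ratio of 0.37, where 49.5% of all genes were higher. In experiment 3, 15 of the 32 were higher (46.9% against 44.7% of all genes), with a median of -0.04, and in experiment 4, 19 of the 32 (59.4% against 50.3%), with a median of 0.05. All 11 sterol branch enzymes were higher in experiment 2, with a median log2 ratio of 0.51, while 6 of them were higher in experiment 3 and 7 in experiment 4. After GC correction the counts were 11, 10 and 7, with medians of 0.47, 0.10 and 0.06. Untreated replicate 2 was the lowest of the 4 untreated samples for 19 of the 32 genes, and untreated replicate 1 was the highest for 22. Whether the higher ratios of experiment 2 reside in its BV6 or its untreated sample cannot be told apart from 1 pair. Over the 3 experiments, 6 genes were higher in each (FDPS, SQLE, NSDHL, HSD17B7, SCD and ACACA), 18.8% of the list against 15.5% of all genes, and 1 was lower in each, 3.12% against 17.8%.

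**Figure D4:**
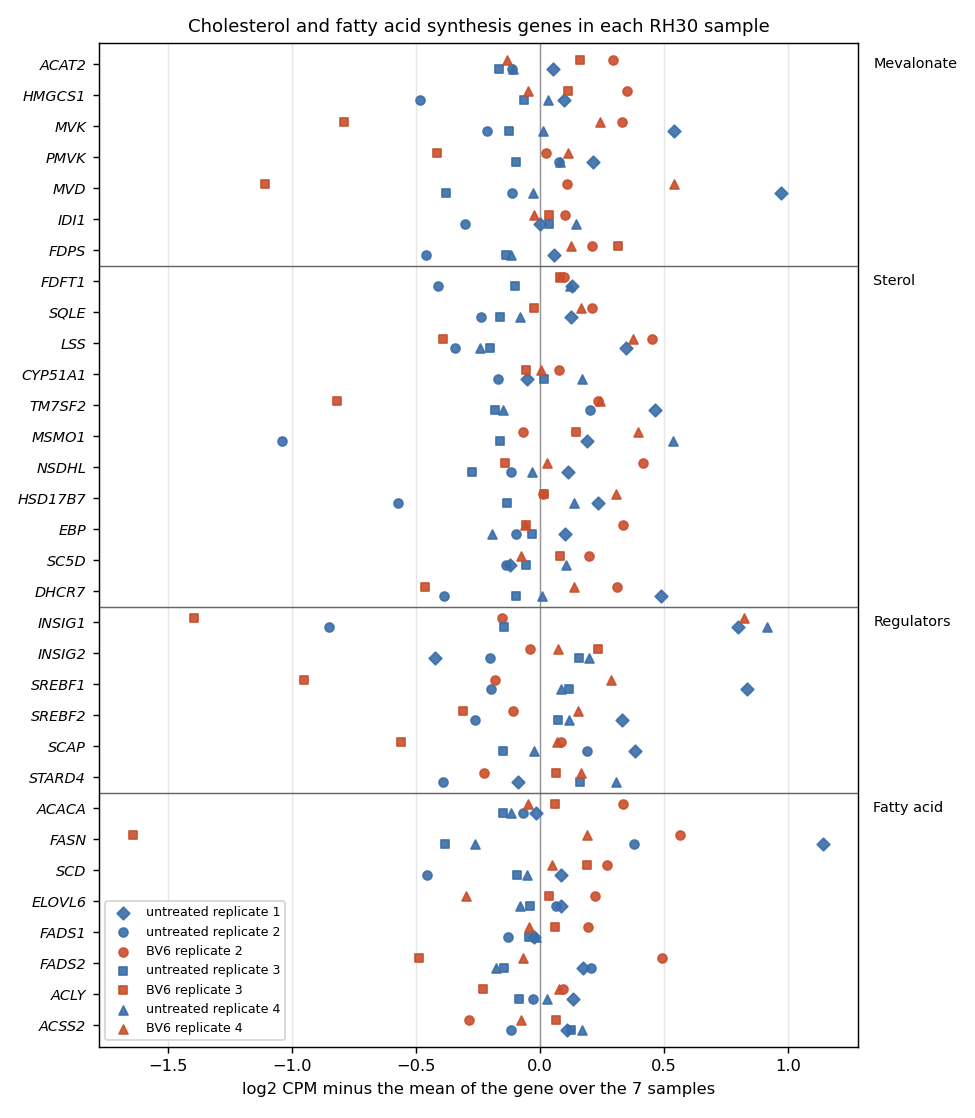
Log2 CPM of each gene minus its mean over the 7 samples, with marker shapes for the replicate number (blue, untreated; red, BV6) and genes grouped by role. Untreated replicate 2 (blue circles) lies lowest among the untreated samples for 19 genes, and BV6 replicate 3 (red squares) lies lowest of all samples for 13, among them FASN, SREBF1, MVD and INSIG1.

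The ratios of experiments 3 and 4 moved with GC content. Of the 32 genes, 11 had a GC content of at least 56.2%, the upper quartile of genes tested. In experiment 3 none of these 11 was higher with BV6, and their median log2 ratio was -0.41, whereas 15 of the other 21 were higher, with a median of 0.13. In experiment 4 all 11 were higher, with a median of 0.20, and 8 of the other 21, with a median of -0.04. Over all genes of known GC content, the correlation of the log2 ratio with GC content was -0.05, -0.46 and 0.21 in experiments 2, 3 and 4, and over the 32 genes it was -0.34, -0.63 and 0.72. These are correlations across genes within 1 pair of libraries each, and genes are not independent replicates.

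A correction of each library for GC content brought the medians of the 11 GC-rich genes to 0.01 in experiment 3 and 0.0027 in experiment 4. FASN (GC content 65.3%) went from a log2 ratio of -1.26 in experiment 3 to -0.50, and SREBF1 (63.2%) from -1.07 to -0.42. INSIG1 (44.8%) stayed at -1.19, against -1.25 before. Over all 32 genes the corrected counts were 29, 20 and 15 higher in experiments 2, 3 and 4. With GC correction and the block together, edgeR called 2 of the 32 genes (6.25%), FDPS with a log2 fold change of 0.50 (adjusted p = 0.0129) and LSS with 0.48 (adjusted p = 0.0133), where it called 6.67% of the 17460 genes of known GC content, 3.26% as higher. Both called genes of the list were higher. Without experiment 3 as well, a setting chosen after seeing the data, 4 of the 32 were called (12.5%), FDPS, LSS, SQLE and SCD, all higher, against 5.69% of genes in either direction and 2.75% as higher. That setting rests on the pairs of experiments 2 and 4 alone. Corrected log2 ratios in experiments 2, 3 and 4 were 0.62, 0.72 and 0.15 for FDPS and 0.76, 0.19 and 0.49 for LSS. They were 0.41, 0.10 and 0.27 for SQLE and 0.69, 0.24 and 0.13 for SCD.

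**Figure D5:**
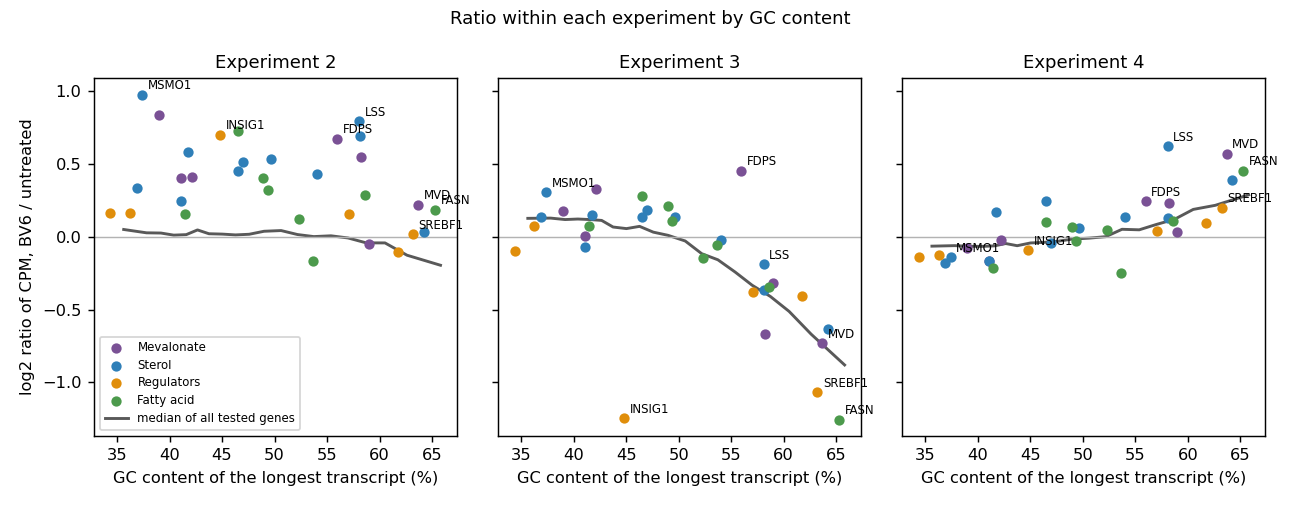
Log2 ratio of CPM (BV6 over untreated) within experiments 2, 3 and 4 against the GC content of the longest transcript, 1 point per gene coloured by role, with the median of all tested genes of known GC content as a line. In experiment 2 the points lie above the line at nearly all GC contents, and in experiments 3 and 4 the points of high GC content follow the line downward and upward, with FDPS and LSS above it in each.

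The genes varied together to different degrees. The SD of log2 CPM among the untreated samples had a median of 0.23 over the 32 genes, against 0.16 over the 11027 genes with a mean of at least 10 CPM, and 21 of the 32 lay above the latter. The sets were not cut alike, since only 30 of the 32 genes had a mean of at least 10 CPM. TM7SF2 and INSIG1 lay below it and were kept. Over the 7 samples, the median correlation of log2 CPM between members was 0.50 over the 55 pairs of sterol branch enzymes, 0.46 among regulators and 0.15 each among mevalonate and among fatty acid enzymes. After GC correction these medians were 0.61, 0.25, 0.37 and 0.48. The samples share depth and library effects, so these correlations are a description.

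Patterns most like those of HMGCS1 and FASN differed. HMGCS1 correlated best with SCD (r = 0.96 over the 7 samples, 0.93 after GC correction), FADS1 (0.90 and 0.74) and FDFT1 (0.87 and 0.86). After GC correction its highest correlation was with DHCR7 (0.98, from 0.54 before). FASN correlated best with TM7SF2 (0.98), SCAP (0.98), PMVK (0.92), ACLY (0.92), MVD (0.91) and MVK (0.91), and after GC correction these were 0.67, 0.34, 0.07, 0.91, 0.70 and 0.83. Between FASN and HMGCS1 themselves r was -0.04, and 0.46 after GC correction.

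Other genes of the same pathways were examined from lists of 54 genes, of which 52 were tested. They covered SREBP cleavage and INSIG turnover, sterol export and oxidation, isoprenoid side branches and further fatty acid enzymes. None was called by edgeR, with or without the block, and their median log2 fold change was 0.07. At an unadjusted p below 0.05, 3 of the 52 were higher and none lower, where 4.13% of all genes were higher. CYP27A1, a mitochondrial sterol hydroxylase, stood at 7.94, 4.67, 8.10 and 6.94 CPM in untreated replicates 1 to 4 and at 9.31, 9.65 and 11.5 CPM in BV6 replicates 2 to 4. Its BV6 samples all lay above its untreated samples, and its log2 fold change was 0.56 ± 0.20 (SE, edgeR adjusted p = 0.486). HSD17B12, which reduces an intermediate of fatty acid elongation, ranged from 83.6 to 93.6 CPM in untreated and from 96.7 to 121 CPM in BV6 samples, without overlap, with a log2 fold change of 0.32 (edgeR adjusted p = 0.421). ELOVL5 and ME1 of the fatty acid list also lay higher without overlap, as 4.94% of all genes did. The smallest p values of the remaining lists belonged to PGGT1B, a subunit of a protein prenyltransferase (log2 fold change 0.31), and ERLIN2, which takes part in INSIG turnover (0.14).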

How the data were processed

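Raw counts for each gene of the RH30 libraries were deposited by the authors. According to the labels and the study's methods they were stranded poly(A) libraries mapped to GRCh38 with STAR 2.6.1d and counted per Ensembl gene. Whether counting used strand is not given in the sources used here. Groups were taken from the treatment label.

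Counts were tested with glmQLFit and glmQLFTest of edgeR 4.0.16 (R 4.3.3), with condition as the only term, after TMM normalization and filterByExpr (minimum count 10), and Benjamini-Hochberg adjustment over 23124 genes. CPM refer to TMM-normalized library sizes. Log2 CPM used a prior count of 2. The standard error was derived from the F statistic. The fit was tested on simulated counts. Gene models, exon lengths and GC content of the longest transcript came from GENCODE release 44, to which 36327 of 57189 symbols matched. GC content was corrected per library by loess (span 0.5). Promoters came from RefSeq.

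The genes and lists were chosen with earlier results of these data known. All 32 genes are named. Of the other lists, genes with an adjusted p below 0.05 in edgeR with or without the block, or else that with the smallest p, are named. ELOVL5 and ME1 are named as well because their groups did not overlap. Full statistics are given for the 6 genes with the largest absolute log2 fold change, and those of HMGCS1 were added after its values were seen. Counting intervals cover counting error only.

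Samples were paired by the label shared in their titles. Deviations from the group mean correlated across genes at 0.515, 0.322 and 0.197 in the 3 pairs when only paired samples were used, and at 0.462, 0.438 and 0.0847 with untreated replicate 1 included. Untreated replicate 4 with BV6 replicate 3, which share no label, gave 0.132 and 0.261, the latter above the value of pair 4. All other mismatched combinations were negative in both versions. Deviations of the BV6 samples from their own mean cancel out for each gene, so positive values in the pairs push mismatched values below 0. The negative sign is therefore no separate test of the pairing. Alternatives were the experiment as a block, DESeq2 1.42.0 with and without the block, limma-voom 3.58.1, RLE factors, no count filter, at least 10 counts in every sample, paired samples only, GC correction and leaving out each sample. Leaving out untreated replicate 1 is the same fit as paired samples only. Fits on genes of known GC content without correction, and GC correction with the block without experiment 3, were chosen after seeing the data. Protein sequences were not used here.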

Additional observations from a re-analysis of the deposited data

Results flagged for a closer look

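LSS, the lanosterol synthase, stood apart in 1 untreated sample. In untreated replicate 1 it was at 130 CPM, against 80.4 to 88.5 CPM in the other 3 untreated samples, and the gap to the nearest of them took 0.835 of the whole untreated range, past Dixon's 95% critical value for a group of 4. Of the 32 genes examined in this way on CPM, LSS was the only one, and chance alone puts about 1 in 20 groups past this value. The result depends on the scale. On log2 CPM, LSS stood at 7.02, 6.33, 6.47 and 6.43 in untreated replicates 1 to 4, where the gap falls short of the critical value. Untreated replicate 1 was also the library in which GC-rich genes lay highest, and the GC content of LSS is 58.1%. After GC correction the log2 CPM of LSS was 6.93 in untreated replicate 1 and 6.46, 6.56 and 6.57 in untreated replicates 2 to 4. The part of GC content in the high value of untreated replicate 1 was not tested. Without untreated replicate 1, the log2 fold change of LSS was 0.45.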

How the results depend on the processing

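None of the 32 genes was called by edgeR without the block under another normalization, count filter, limma-voom, GC correction alone or without any 1 sample, nor by DESeq2 without the block. With the experiment as a block (replicate block), edgeR again called none of them, and DESeq2 called 1, FDPS. With GC correction and the replicate block 2 were called, FDPS and LSS, and without experiment 3 as well 4 were called, FDPS (log2 fold change 0.39, edgeR adjusted p = 0.0125), SQLE (0.35, 0.0165), LSS (0.62, 4.9e-05) and SCD (0.42, 0.00838). Of the other pathway genes, these last 2 settings called 2 and 1. The setting without experiment 3 was chosen after seeing the data and rests on the pairs of experiments 2 and 4 alone. FDPS, HMGCS1, SQLE, LSS, SCD and ACACA had a log2 fold change above 0 in every setting run. The same held for ACAT2, FDFT1, NSDHL, HSD17B7, EBP, SC5D and FADS1, while SCAP and ACSS2 were below 0 in every setting. The settings share samples, and the share of all genes that kept their sign was not computed.

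The number of all genes called was 104, and became 218 with the replicate block, 408 in DESeq2, 513 in DESeq2 with the block, 242 with no filter on low counts, 41 with the paired samples only, 192 with GC correction, 178 in genes of known GC content with the block, 1164 with GC correction and the block, and 995 without experiment 3 as well. Leaving out 1 sample gave 38 to 89 calls over all genes, fewest without untreated replicate 3. Allowing 1 mismatch raised the genes with a sterol element core from 1 to 12.

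Paired samples only and leaving out untreated replicate 1 are the same fit, and the counts that follow hold it under both names. Of 640 recomputed log2 fold changes over the 32 genes, 75 changed sign, in 17 genes. These included SREBF1, FASN, INSIG1 and MVD, whose reported values were -0.46, -0.38, -0.34 and -0.22. With the block these were MVK 0.042, MVD 0.0304, DHCR7 0.15, ELOVL6 0.0042 and ACLY 0.0079. DESeq2 gave CYP51A1 -0.0022 and FADS2 -0.0094, and with the block MVK 0.0303, MVD 0.017, CYP51A1 -0.0062 and DHCR7 0.14. Limma-voom gave STARD4 0.0032 and FADS2 -0.043, and RLE factors and no count filter each gave FADS2 -0.0063. Paired samples only gave MVK 0.11, MVD 0.16, DHCR7 0.18, FASN 0.0145, ELOVL6 0.021 and ACLY 0.017. Genes of known GC content with the block gave MVK 0.037, MVD 0.025, CYP51A1 -0.0011, DHCR7 0.15 and ACLY 0.0029. GC correction gave MVK 0.017, MVD 0.0063, IDI1 -0.0033, CYP51A1 -0.048, TM7SF2 0.10 and DHCR7 0.10. GC correction with the block gave MVK 0.11, MVD 0.19, CYP51A1 -0.024, TM7SF2 0.11, DHCR7 0.22, INSIG2 -0.0036 and ACLY 0.012, and without experiment 3 as well MVK 0.30, MVD 0.31, TM7SF2 0.13, DHCR7 0.33, INSIG1 0.23, SREBF1 0.021, SREBF2 0.021, STARD4 0.0016, FASN 0.24 and ACLY 0.032. Leaving out 1 sample gave ranges across 0 for MVK (-0.27 to 0.21), MVD (-0.60 to 0.16), DHCR7 (-0.17 to 0.19), FASN (-0.81 to 0.042), ELOVL6 (-0.12 to 0.12), ACLY (-0.078 to 0.075), IDI1 (-0.025 to 0.12), CYP51A1 (-0.041 to 0.077), MSMO1 (-0.0499 to 0.42), STARD4 (-0.13 to 0.10), FADS2 (-0.28 to 0.22), PMVK (-0.25 to 0.0010), TM7SF2 (-0.32 to 0.13) and INSIG1 (-1.01 to 0.062). The cause was not tested. INSIG1 had the lowest counts of the list, at 12 to 69 as deposited, and the part of depth in its changes of sign was not tested. The planned comparison of protein sequences was not run.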
